A study of Rattus norvegicus with 102 samples.

Results

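Tcf7l2, Lef1, Prkcd, Rora, Zic1, Synpo2 and Ramp3, 7 genes used as markers of thalamic neurons, were followed through RNA sequencing libraries of dissected rat hippocampus. The members are the rows of the deposited table whose gene symbol equals one of these names. Of the 7, 6 have a row among the 26689 genes, and no row carries the symbol Ramp3. The study sequenced poly-A mRNA from the dentate gyrus (DG) and fields CA1 and CA3 of 34 male Fischer 344 rats on the Ion Proton, 1 library for each subfield and rat. The groups are 10 young rats (Y, 5 to 6 months) and 24 aged rats (17 to 22 months), 12 unimpaired (AU) and 12 impaired (AI) in a water maze task, and all were trained in the maze before the tissue was taken. The labels name no transgene and no drug. The rat identifiers fall into a series beginning with R9 (16 rats, 5 Y, 6 AU and 5 AI) and one beginning with R1 or R2 (18 rats, 5 Y, 6 AU and 7 AI). Memory testing was shared by 2 institutions, with 5 young and 13 aged rats at one and 5 young and 11 aged rats at the other. The institutions drew their rats from different suppliers. These counts equal those of the identifier series, but no label ties a rat to an institution, and series and institution cannot be told apart.

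The thalamus lies beneath the hippocampus and relays sensory and motor signals to the cortex through glutamatergic neurons. Its neurons are formed under Wnt signalling and keep the transcription factors Tcf7l2 and Lef1, which bind beta-catenin at Wnt target genes, into adult life. Hippocampal pyramidal and granule neurons are not known for these factors, but single members are also used by other cells, such as Lef1 by endothelial cells, Zic1 by meningeal and septal cells and Synpo2 by contractile cells.

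The name of the gene set was checked against other genes of thalamic and habenular neurons. Gbx2, a transcription factor of developing thalamic neurons, was at 0 in 92 libraries and reached at most 6.79 normalized counts. Shox2, a transcription factor of thalamic relay neurons, was at 0 in 81 libraries and above 50 normalized counts in 3. Chrnb3, a nicotinic receptor subunit of habenular neurons, was at 0 in 72 libraries. These 3 were at or near 0 in most libraries, while the 6 members with a row had medians of 34.8 to 128 normalized counts. Other genes of the same lists were present throughout, among them Slc17a6 with a median of 140, Lhx9 with 81.1, Tnnt1 with 86.4 and the habenular Tac3 with 170 and Gng8 with 47.0 normalized counts. The members are therefore described below as genes, and not as a measure of thalamic cells.

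Several libraries stood apart before any comparison of the members. By the mean of marker genes for each subfield, 20 libraries were closest to a subfield other than the labelled one, all 20 in the R9 series, and 15 of these were among the 16 R9 libraries labelled CA3 (11 closest to CA1 and 4 to DG). More than 1000 of the 16374 tested genes were at 0 in 5 libraries, 1 of them among those 20, against a median of 48.5. Recovered reads per library ranged from 4478984 to 21467303, with a median of 9755402. Values are given with these libraries, and where a call depends on them also without them. In dissected tissue, fewer cells of a type and less RNA per cell cannot be told apart.

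The promoters of Tcf7l2, Lef1 and Prkcd are shown because Tcf7l2 and Lef1 are the TCF and LEF factors of the set and Prkcd was the member that followed Tcf7l2 most closely. Each window holds the 250 bases before the RefSeq start in the GRCr8 build, read 5′ to 3′ on the strand of the gene, and the members' counts were made on the older rn5 build. Capitals mark CTTTG, the core of the site of TCF and LEF factors, and AGGTCA, a hexamer bound by nuclear receptors such as Rora, on either strand (CAAAG and TGACCT).
Tcf7l2, chr1:264791085-264791334, plus strand: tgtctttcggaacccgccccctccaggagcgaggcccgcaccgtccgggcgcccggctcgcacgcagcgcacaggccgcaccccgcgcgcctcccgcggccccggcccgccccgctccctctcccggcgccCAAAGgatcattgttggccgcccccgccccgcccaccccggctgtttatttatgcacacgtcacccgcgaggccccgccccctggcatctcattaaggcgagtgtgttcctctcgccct
Lef1, chr2:222340463-222340712, plus strand: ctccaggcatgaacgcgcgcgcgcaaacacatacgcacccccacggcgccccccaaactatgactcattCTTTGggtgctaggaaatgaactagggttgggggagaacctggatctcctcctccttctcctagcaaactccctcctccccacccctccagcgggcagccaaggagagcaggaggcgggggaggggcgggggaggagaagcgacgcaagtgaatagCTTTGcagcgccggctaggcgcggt
Prkcd, chr16:5805840-5806089, minus strand: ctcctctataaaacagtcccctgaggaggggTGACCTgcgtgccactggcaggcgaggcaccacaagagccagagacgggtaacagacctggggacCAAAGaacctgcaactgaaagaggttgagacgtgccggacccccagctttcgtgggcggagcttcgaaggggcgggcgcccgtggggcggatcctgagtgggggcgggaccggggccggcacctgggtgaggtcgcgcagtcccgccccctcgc
The window of Lef1 held 2 matches to CTTTG and those of Tcf7l2 and Prkcd 1 each. The RefSeq table holds a promoter for 6 of the 7 members, Ramp3 included and Zic1 not, and 5 of these held CTTTG, against 48.2% of all 33469 promoters. AGGTCA was found in 1 of these promoters, that of Prkcd, against 14.1% of all promoters. The matches are letters in a window and not bound sites.

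The transcription factors came first. Tcf7l2, a TCF factor of the Wnt pathway, ranged from 68.8 through a median of 99.3 to 535 normalized counts in CA1, from 38.1 through 94.5 to 210 in CA3, and from 41.6 through 76.4 to 111 in DG (34 libraries each). The ranges overlapped broadly, and the 2 values above 300 normalized counts were both in CA1. Lef1, its relative, ranged from 0 through 51.6 to 198 in CA1, from 17.3 through 46.8 to 142 in CA3, and from 15.3 through 42.6 to 85.5 in DG. DG had neither the highest nor the lowest Lef1 value. Rora, an orphan nuclear receptor, ranged from 0 through 41.7 to 119 normalized counts in CA1, from 0 through 31.6 to 73.6 in CA3, and from 7.61 through 33.6 to 54.2 in DG. Zic1, a zinc finger factor of dorsal neural tissue, ranged from 0 through 72.3 to 785 in CA1, from 14.6 through 55.7 to 567 in CA3, and from 8.43 through 50.9 to 646 in DG. Unlike Tcf7l2, Zic1 had libraries far above its median in all 3 subfields. Zic1 and Zic4 are adjacent, overlapping genes in the RefSeq annotation, and since the use of strand in counting is not given in the sources used here, their reads cannot be told apart with certainty.

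Prkcd encodes protein kinase C delta, which is abundant in thalamic relay neurons, and it had the widest spread of the 6 members by standard deviation. It ranged from 82.0 through a median of 161 to 1871 normalized counts in CA1, from 63.6 through 134 to 755 in CA3, and from 56.4 through 106 to 946 in DG. The highest value was 14.6 times the median of all libraries. Synpo2 encodes an actin-binding protein of the synaptopodin family and ranged from 0 through 36.7 to 338 in CA1, from 11.3 through 33.5 to 236 in CA3, and from 15.1 through 34.7 to 65.4 in DG. Its DG values lay within a narrow range, and its highest values were in CA1 and CA3. At the median of 34.5 reads for Synpo2 and 138.5 for Prkcd, counting error alone is 17.0% and 8.5% of the value, so the highest libraries lie far outside counting error while smaller differences between 2 libraries may not.

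**Figure D1:**
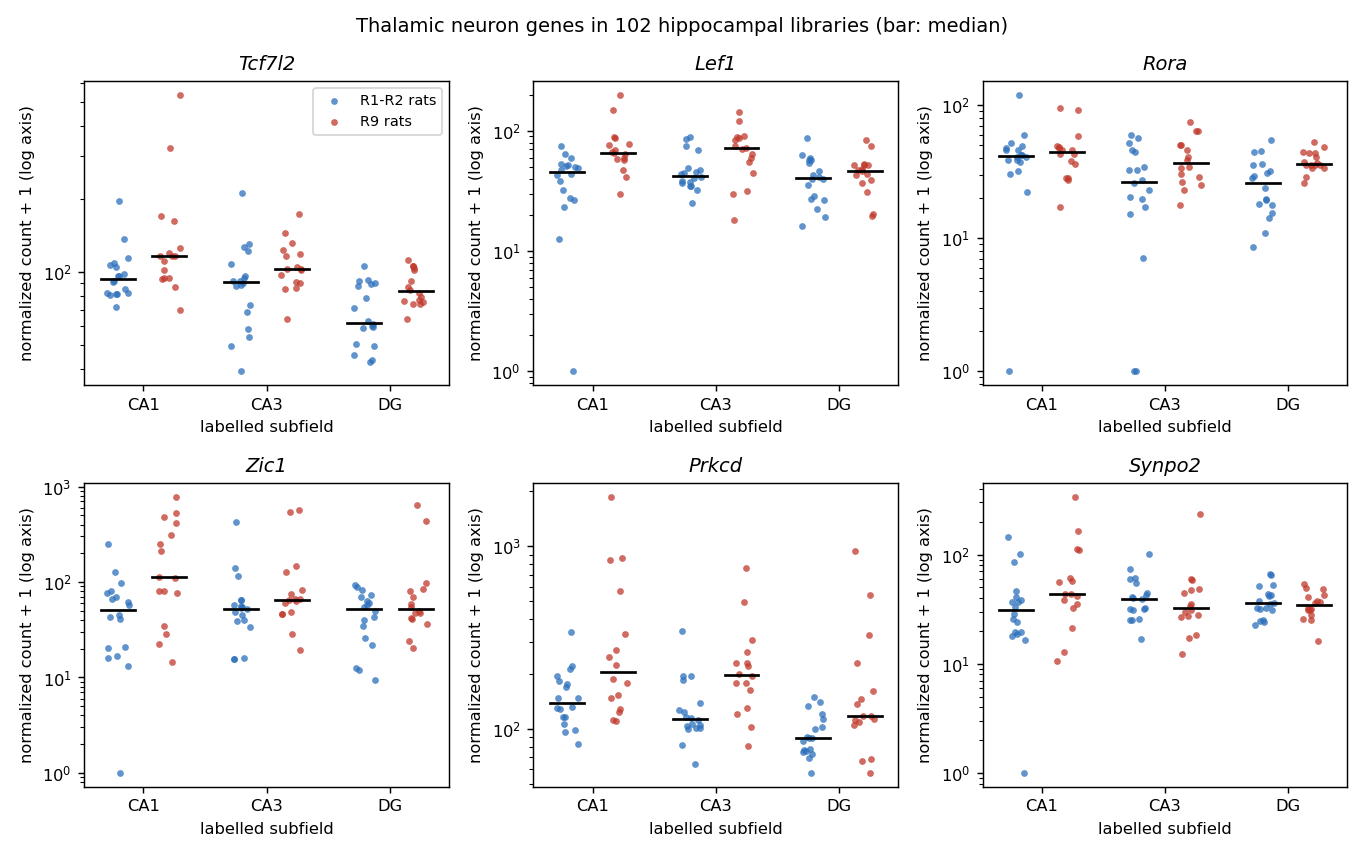
Normalized count + 1 (log axis) of the 6 members in each library, by labelled subfield; blue points are R1-R2 rats, red points R9 rats, and bars are medians. The bulk of the points overlap, and a few red points stand above the rest, up to 1871 for Prkcd and 785 for Zic1.

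The highest values fell into sets of libraries with different companions. In the CA1 library of AI rat R9875, 5 of the 6 members were among the 3 highest of all libraries, with 535 normalized counts of Tcf7l2, 198 of Lef1, 1871 of Prkcd, 92.1 of Rora and 338 of Synpo2, and Zic1 was 411. In the CA1 library of AI rat R9870 the values were 323, 149, 866, 94.5 and 162 in the same order, with 530 for Zic1. These 2 libraries held the 2 highest values of both Tcf7l2 and Lef1. They were also high for other thalamic genes. Shox2 was 133 and 68.5 normalized counts against a median of 0, and Slc17a6, the vesicular glutamate transporter of thalamic neurons, was 775 and 378 against a median of 140. Hcn4, a pacemaker channel of relay neurons, was 109 and 52.8 against 24.6.

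The other subfields of the same rats were lower. In rat R9875, Prkcd was 176 normalized counts in CA3 and 145 in DG, and Tcf7l2 was 104 and 81.4. In rat R9870, Prkcd was 177 in CA3 and 229 in DG, and Tcf7l2 was 102.2 and 83.8. For Tcf7l2 these 4 values lie within the range of the R1-R2 rats in the same subfields, and for Prkcd the value of 229 lies above it. The CA1 library of rat R9870 was also the highest of all for Ttr, the most abundant choroid plexus gene, with 164721 normalized counts against a median of 199, and that of rat R9875 had 826. The part of choroid plexus tissue in the members' values was not tested.

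In another set, Prkcd and Zic1 were high while Tcf7l2 stayed near its median of 90.9. The CA1 library of young rat R9879 had 838 normalized counts of Prkcd and 785 of Zic1, with 116 of Tcf7l2. The DG library of young rat R9881 had 946 and 646, with 103 of Tcf7l2. The CA3 library of AU rat R9865 had 755 and 567, with 101 of Tcf7l2. The CA1 and DG libraries of AI rat R9872 had 567 and 539 of Prkcd and 475 and 440 of Zic1, while the CA3 library of the same rat had 227 and 74.1. Shox2 was at most 1.15 normalized counts in these 5 libraries. They were high for Zic4 (114 to 260 normalized counts, median 16.6), Grid2ip, a scaffold of glutamate receptors (132 to 338, median 40.5), and Calb2, the calcium-binding protein calretinin (193 to 534, median 101). Grid2ip was above 100 normalized counts in 9 libraries, 5 of them labelled CA1, and was thus not particular to this set.

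Genes of the septum and striatum moved with part of this set. In the DG library of rat R9881, Slc5a7, the choline transporter, was 158 normalized counts against a median of 7.31, and Lhx8, a factor of cholinergic neurons, was 64.5 against 0. In the CA1 library of AU rat R9869, with 329 of Prkcd, 309 of Zic1 and 161 of Tcf7l2, the striatal receptor Adora2a was 1231 against 45.2 and Drd2 was 974 against 29.9. Over the whole striatal list of 6 genes, the summed level ranged from 159 to 7822 in R9 and from 214 to 504 normalized counts in R1-R2 libraries of CA1. Over the 4 septal genes with a row it ranged from 20.2 to 310 and from 0 to 156. The part of these tissues in the members' values was not tested.

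A further set carried meningeal genes. The CA3 library of young rat R9876 had 540 normalized counts of Zic1, 142 of Lef1, 236 of Synpo2 and 493 of Prkcd, with 117 of Tcf7l2. Slc22a6, an organic anion transporter of the meninges, was 1176 there against a median of 11.5, and Col1a1, a collagen of fibroblasts, was 1951 against 31.4. The CA1 library of AI rat R2231, with 250 of Zic1, 145 of Synpo2, 337 of Prkcd and 58.6 of Lef1, had 477 and 951. The CA1 library of young rat R2175, with 100.5 of Synpo2, was the next highest for both genes, with 243 and 536. The summed level of the 7 meningeal genes was 7625 and 3572 normalized counts in the libraries of R9876 and R2231, against medians of 193 to 456 over the 6 combinations of subfield and series. Chrnb3 was also highest in these 3 libraries, at 87.2, 23.6 and 9.70 normalized counts against a median of 0. The part of meningeal or habenular tissue in the members' values was not tested.

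Values at or near 0 also had a pattern. The CA1 library of AU rat R2230 was at 0 for Lef1, Zic1 and Synpo2, while its Rora value of 119 normalized counts was the highest of all. A count of 0 there allows up to 4.46 normalized counts (3 reads, counting error only). Rora was at 0 in the CA3 libraries of AI rats R1931 and R2182 and the CA1 library of AU rat R2232. These 4 libraries had 558 to 1992 of the tested genes at 0. The CA3 library of rat R1931 was the remaining one with Shox2 above 50 normalized counts, at 62.1, and its Tcf7l2 value of 210 ranked 3 of all libraries.

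**Figure D2:**
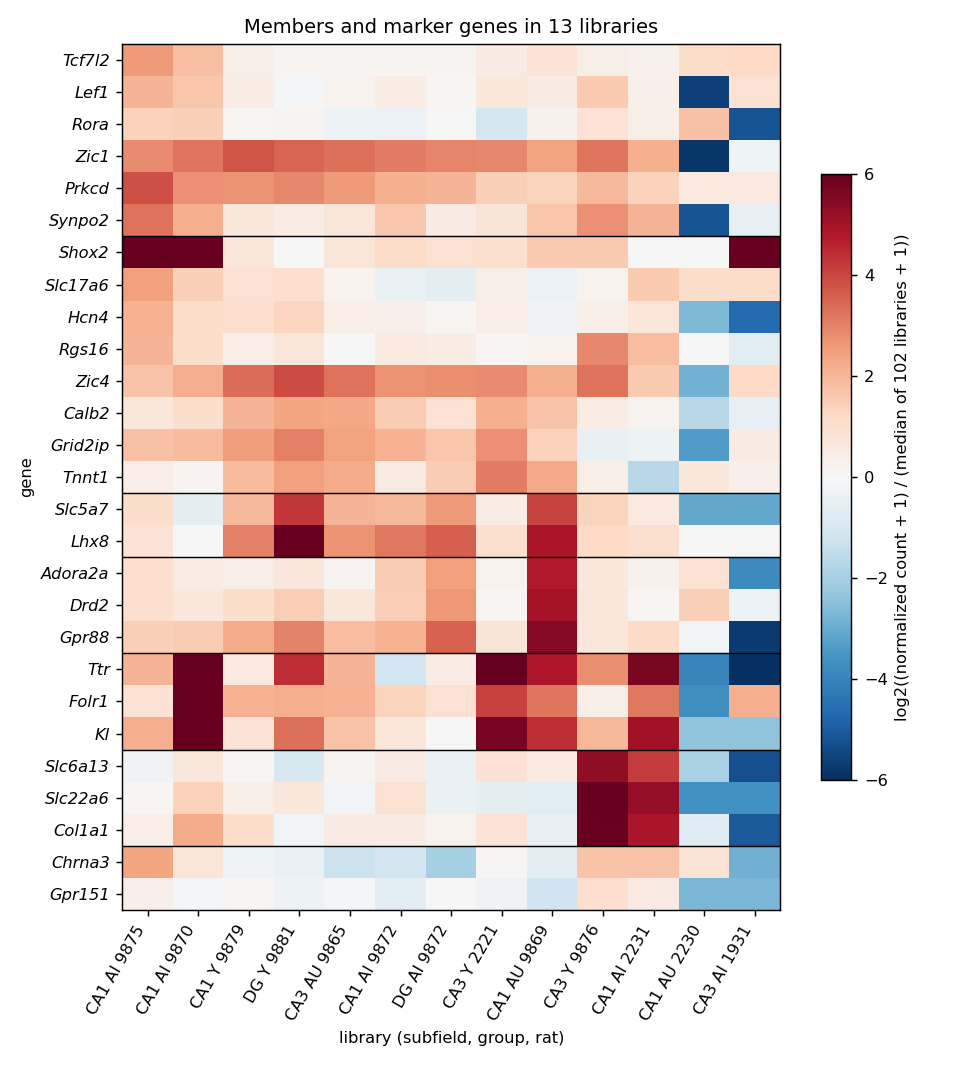
Log2 ratio of each gene's normalized count + 1 to its median over all libraries + 1, for 13 libraries with the highest or lowest member values (columns) and the members, other thalamic, septal, striatal, choroid plexus, meningeal and habenular genes from top to bottom (rows, separated by lines); colours are cut at 6 in either direction. Tcf7l2 and Lef1 are both clearly raised in the 2 libraries on the left, while Zic1 is raised in 11 of the 13.

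The R9 and R1-R2 series were compared in each subfield, with group (Y, AU, AI) as a covariate, by limma on log2(normalized count + 1), two-sided, with Benjamini-Hochberg adjustment over all tested genes. In CA1, 3 of the 6 members were called at an adjusted p under 0.05, all higher in R9, where 7.54% of 16385 genes were called in either direction and 4.41% as higher. Zic1 ranged from 13.6 through a median of 111 to 785 normalized counts in the 16 R9 libraries and from 0 through 50.4 to 250 in the 18 R1-R2 libraries, a log2 fold change of 1.73 (SE 0.56, adjusted p = 0.0498). Lef1 ranged from 28.6 through 65.0 to 198 and from 0 through 44.5 to 74.3, a log2 fold change of 1.12 (SE 0.36, adjusted p = 0.0465). Prkcd ranged from 110 through 204 to 1871 and from 82.0 through 138 to 337, a log2 fold change of 0.91 (SE 0.28, adjusted p = 0.0394). The series overlapped for all 3 genes, though only 1 to 3 of the 18 R1-R2 libraries lay above the R9 median of each.

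These 3 calls were close to the threshold. Leaving out each of the 34 CA1 libraries in turn gave 3 calls in 8 cases and none in 12, among them the libraries of rats R9875, R9870 and R9879. Leaving out libraries by Shox2 or Grid2ip also takes away the highest member values, since both genes were picked for being high there, so a lower fold change follows from the choice. Without the libraries with Shox2 above 50 normalized counts no member was called, and Prkcd fell from 0.91 to 0.58 on the log2 scale (adjusted p = 0.175). Without the 9 libraries with Grid2ip above 100 normalized counts, 8 of them R9, no member was called, and Prkcd was 0.21 (adjusted p = 0.66) and Zic1 0.85 (adjusted p = 0.53). The other members, Tcf7l2 (log2 fold change 0.44, SE 0.18, adjusted p = 0.15), Synpo2 (0.83, SE 0.46, adjusted p = 0.29) and Rora (0.31, SE 0.36, adjusted p = 0.65), did not pass. Choroid plexus genes moved with the series, 5 of 7 being called as higher in R9 in CA1 (4.41% of all genes), and the summed level of that list ranged from 113 to 172531 in R9 and from 0 to 10880 normalized counts in R1-R2. Of these 7 genes, 6 have a mean of at least 5 over all libraries. The remaining gene, Otx2, had a mean of 2.75, was at 0 in 60 libraries and was highest, at 75.2 normalized counts, in the CA1 library of rat R9865. The filter on the mean in CA1 may thus have let Otx2 in through R9 libraries where it is high.

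In DG, 3 of the 6 members were called, all higher in R9 (19.3% of 16192 genes called in either direction, 10.2% as higher). They were Rora, Tcf7l2 and Prkcd. Rora ranged from 25.1 through 35.1 to 52.1 normalized counts in R9 and from 7.61 through 25.1 to 54.2 in R1-R2, a log2 fold change of 0.64 (SE 0.20, adjusted p = 0.0194). The R9 libraries lay within the range of R1-R2, which reached lower. Tcf7l2 ranged from 63.2 through 82.6 to 111 and from 41.6 through 61.0 to 105, a log2 fold change of 0.38 (SE 0.13, adjusted p = 0.0300). Prkcd ranged from 56.6 through 117 to 946 and from 56.4 through 88.1 to 148, a log2 fold change of 0.73 (SE 0.25, adjusted p = 0.0397). The lowest values of both series were alike for Prkcd, and the difference lay in the upper part of the R9 range. Without the DG libraries of rats R9872 and R9881, which had Grid2ip above 100 normalized counts, Rora alone was called, with Tcf7l2 at 0.35 (adjusted p = 0.0783) and Prkcd at 0.39 (adjusted p = 0.11). Leaving out the DG library of rat R2184 or of rat R2221 also left Rora alone. On the recovered reads, Rora in DG was not called by edgeR (log2 fold change 0.47, adjusted p = 0.0764) or DESeq2 (0.48, adjusted p = 0.0526), while Zic1 was called by both (1.16, adjusted p = 0.0415, and 1.15, adjusted p = 0.0334).

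In CA3, 1 of the 6 members was called, as higher in R9 (18.6% of 16471 genes called in either direction, 8.55% as higher). Prkcd ranged from 79.4 through 196 to 755 normalized counts in R9 and from 63.6 through 113 to 344 in R1-R2, a log2 fold change of 0.72 (SE 0.23, adjusted p = 0.0210). Of the 18 R1-R2 libraries 1 was above the R9 median. Since 15 of the 16 R9 libraries labelled CA3 were closest to another subfield by their markers, the series and the subfield content cannot be told apart here. The differences of the series effect between subfields were tested on differences within rats, and 0 of the 6 members were called by limma for CA1 minus CA3, CA1 minus DG or CA3 minus DG (13.7%, 7.54% and 18.5% of genes called). At an unadjusted p under 0.05 they numbered 1, 2 and 0, against 26.2%, 27.3% and 31.2% of genes. Effects called in 1 subfield are thus not shown to differ between subfields.

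**Figure D3:**
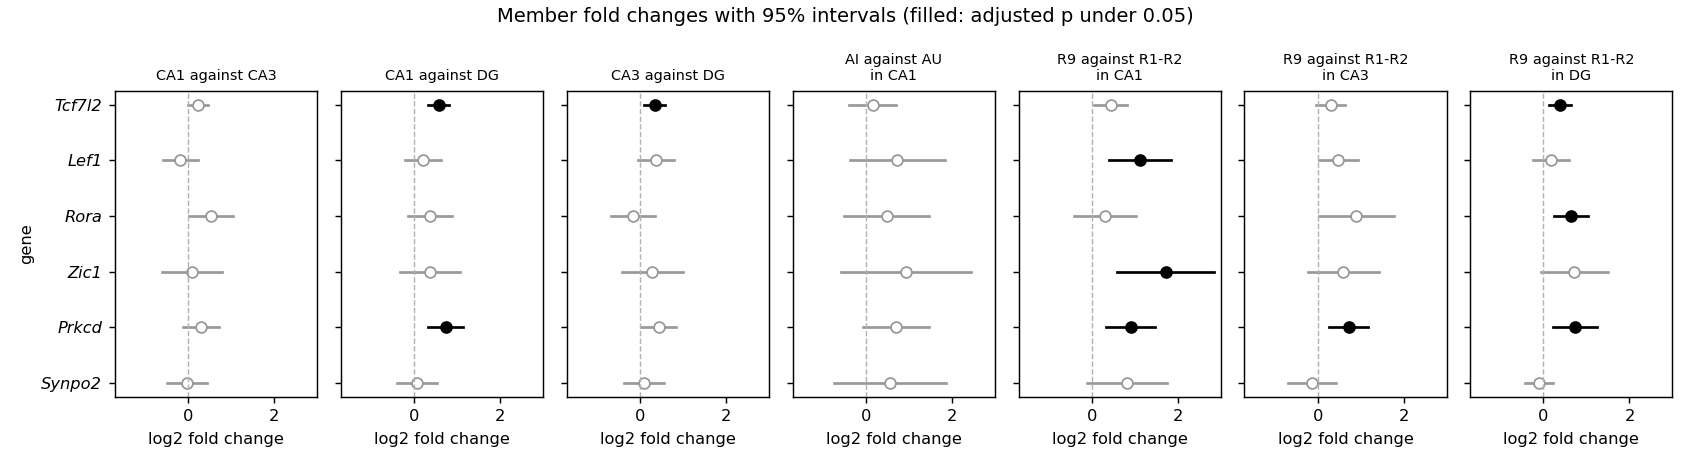
Log2 fold changes of the 6 members with 95% intervals, for the 3 subfield comparisons, AI against AU in CA1 and R9 against R1-R2 in each subfield; filled points have an adjusted p under 0.05. All 10 filled points lie to the right of 0.

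Between subfields, CA1 and CA3 did not differ in any member at an adjusted p under 0.05 in limma (0 of 6 called, 15% of 16374 genes called), and 1 member had an unadjusted p under 0.05 (26.8% of genes), Rora, at a log2 fold change of 0.54 (SE 0.26, adjusted p = 0.15). edgeR and DESeq2 on the recovered reads called 0 as well. Among the libraries whose markers matched the label, Rora was called as higher in CA1 (log2 fold change 0.93, adjusted p = 0.0253 by limma). Between CA1 and DG, Tcf7l2 and Prkcd were called, both higher in CA1 (2 of 6, against 28.5% of all genes in either direction and 14.5% as higher in CA1). Tcf7l2 had a mean of 124 ± 86.2 normalized counts in CA1 and 76.5 ± 19.7 in DG (SD, n = 34 each), a log2 fold change of 0.57 (SE 0.12, adjusted p = 9.99e-05 by limma). Prkcd had means of 268 ± 338 and 148 ± 167, a log2 fold change of 0.74 (SE 0.21, adjusted p = 0.00398). In the R9 rats alone the Prkcd difference was 0.82 and was not called (adjusted p = 0.0612). The SD exceeded the mean for Prkcd in both subfields, and the ranges overlapped for both genes.

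Between CA3 and DG, Tcf7l2 was called as higher in CA3 (1 of 6, against 28.9% of all genes and 15.3% as higher). Its mean was 99.6 ± 34.1 normalized counts in CA3, and the log2 fold change was 0.35 (SE 0.12, adjusted p = 0.0229). Among the libraries whose markers matched the label it was 0.28 (adjusted p = 0.15), and the call was lost. With 6 members, the shares called between subfields are not far from those of all genes. The order of Tcf7l2 was thus CA1, CA3 and DG, in which the first pair did not differ beyond its spread (log2 fold change 0.23, SE 0.12, adjusted p = 0.21). For Lef1, Zic1 and Synpo2 no pair of subfields was called, with log2 fold changes of −0.17 to 0.38.

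Neither age nor maze performance was tied to a call of any member. In limma, 0 of 6 members were called for aged against young rats in CA1, CA3 or DG, where 0.0183%, 0.00607% and 0.0741% of genes were called, and 0 had an unadjusted p under 0.05, as 3.43%, 1.53% and 8.33% of genes had. edgeR and DESeq2 also called 0. Log2 fold changes ranged from −0.21 to 0.35 in CA1, −0.27 to 0.25 in CA3 and −0.10 to 0.25 in DG. For AI against AU rats, 0 of 6 were called in each subfield and 0% of genes, again with 0 at an unadjusted p under 0.05 (2.08%, 1.61% and 1.77% of genes in CA1, CA3 and DG) and 0 in edgeR and DESeq2.

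The highest CA1 values of Tcf7l2, Lef1, Prkcd and Synpo2 were in AI rats, that of Rora in an AU rat and that of Zic1 in a young rat. Prkcd ranged from 95.7 through 180 to 1871 normalized counts in the CA1 libraries of 12 AI rats, from 82.0 through 150 to 329 in 12 AU rats and from 97.6 through 128 to 838 in 10 young rats. Tcf7l2 ranged from 80.1 through 104 to 535 in AI, from 68.8 through 111 to 195 in AU and from 71.1 through 93.3 to 116 in young rats. Thus the median of Tcf7l2 was lower in AI than in AU rats while the mean was higher, 156 against 117. The log2 fold change of AI against AU in CA1 was 0.70 for Prkcd (SE 0.37, adjusted p = 0.9998) and 0.16 for Tcf7l2 (SE 0.27, adjusted p = 0.9998). Without the libraries with Shox2 above 50 normalized counts, that is without the CA1 libraries of rats R9870 and R9875, Tcf7l2 was −0.18.

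Across all libraries the members followed each other in part. Of the 15 pairs, 5 had a Pearson r over 0.5 on the log2 scale, with a median of 0.23. These are descriptions, since 3 libraries share each rat and the libraries share the series and the subfield content. The highest were Prkcd with Zic1 (0.69, 0.84 in R9 and 0.33 in R1-R2), Zic1 with Synpo2 (0.66), Zic1 with Lef1 (0.65), Tcf7l2 with Prkcd (0.61) and Lef1 with Synpo2 (0.53). Rora had an r between −0.12 and 0.20 with each other member over all libraries, between 0.34 and 0.62 within R9 and between −0.36 and −0.04 within R1-R2. Within R9 all 15 pairs were positive, from 0.34 to 0.84. Without the 16 libraries that stood apart by Shox2, Slc22a6, Grid2ip or genes at 0, Prkcd with Zic1 was 0.51, Lef1 with Zic1 0.54, Tcf7l2 with Prkcd 0.44, Zic1 with Synpo2 0.35 and Lef1 with Synpo2 0.10, while Lef1 with Prkcd was 0.56 against 0.41 over all libraries.

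**Figure D4:**
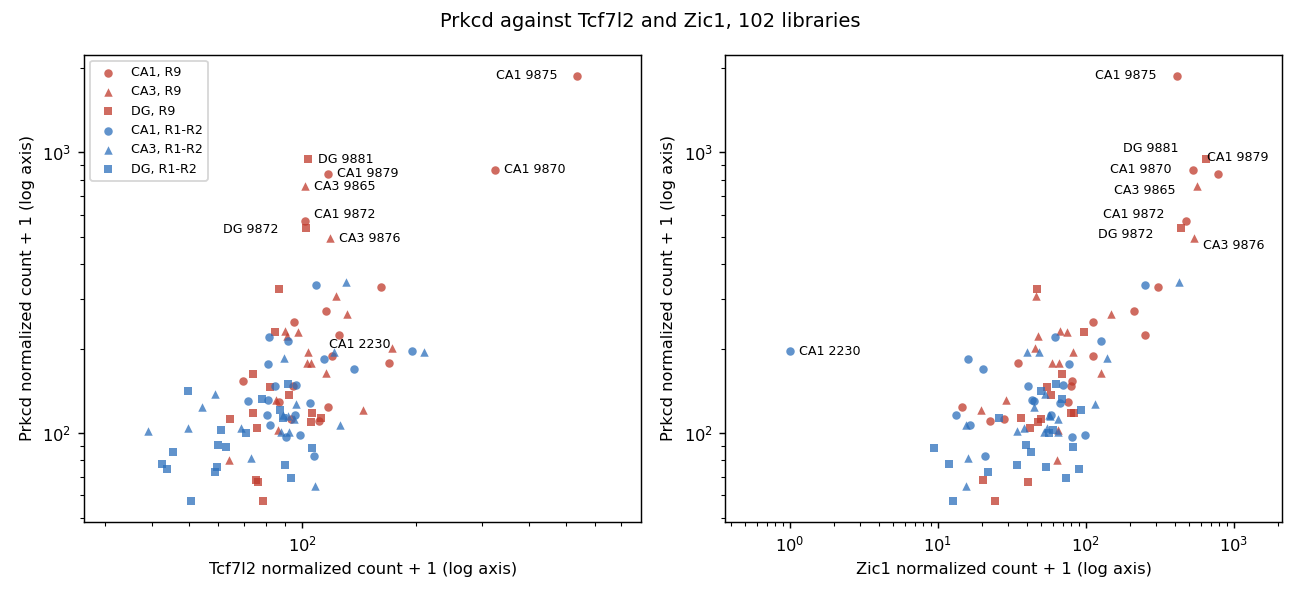
Prkcd normalized count + 1 against Tcf7l2 (left) and Zic1 (right) in all libraries (log axes), with colour for the rat series and shape for the labelled subfield. The 2 libraries far to the right for Tcf7l2 are CA1 of rats R9875 and R9870, and 9 libraries have 411 to 785 normalized counts of Zic1.

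The genes most like the mean of the 6 members over all libraries were, in order, Ptrf (r = 0.74), Zic4 (0.73), Tgfbr3 (0.72), Timp3 (0.69), Notch4 (0.68), Ctnnd1 (0.68), Ano1 (0.67), Slfn5 (0.66), Afap1l2 (0.66) and Clic6 (0.66). Ptrf encodes a coat protein of caveolae, Notch4 a receptor of endothelial cells, Timp3 an inhibitor of matrix proteases and Clic6 a chloride channel protein of the choroid plexus. For single members, the most alike were Map4k4 and Gpatch4 for Tcf7l2 (0.66 and 0.65), Zfp366, Ptrf and Notch4 for Lef1 (0.74, 0.74 and 0.73), Zic4, Ano1 and Grid2ip for Zic1 (0.78, 0.75 and 0.70), and Sft2d2 and Ptrf for Synpo2 (0.65 and 0.64). For Prkcd they were RGD1310587 (0.71) and Zfhx3 (0.66), beside Zic1. For Rora they were AABR07067499.1, Cep112 and Ybey (0.75, 0.71 and 0.71), but within R9 these were −0.01, −0.08 and −0.05 against 0.86, 0.81 and 0.78 within R1-R2, and the rank correlations were 0.37, 0.13 and 0.15. The libraries with Rora at 0 are all in R1-R2.

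The other thalamic neuron genes gave a mixed picture. Of the 19 on the list, 16 have a row and 15 could be tested between the series in CA1. There 5 were called as higher in R9 and 1 as lower (7.54% of all genes called in either direction, 4.41% as higher). The genes called as higher were Zic4 (1.68), Grid2ip (1.21), Tnnt1 (1.03), Patj (0.83) and Adarb1 (0.47), and Ntng1, a netrin-like surface protein, was lower (−0.61). Grid2ip was picked for being high in libraries with high members, and reads of Zic4 cannot be told apart with certainty from those of Zic1. The calls of Zic4 and Grid2ip are thus not independent of the members, and the list was chosen with earlier results of these data known. The median log2 fold change was 0.37 against 0.02 over all genes. Testing needed a mean of at least 5, which Shox2 reached in CA1 only through the R9 libraries of rats R9875 and R9870. It was not called, and its part in the median follows from that filter. In CA3, 2 of 14 were called as higher and 6 as lower (18.6% of all genes called in either direction, 8.55% as higher). Tnnt1, a slow troponin T, was at −2.11 and Lhx9 at −2.06 there. In DG, 3 were called as higher and 2 as lower, with Tnnt1 at 3.16 (19.3% of all genes called in either direction, 10.2% as higher). The sign of Tnnt1 and Ntng1 thus changed between labelled subfields. Slc17a6 followed Prkcd (r = 0.41) and Tcf7l2 (0.36) but not Zic1 (0.07). Oligodendrocyte genes also followed Tcf7l2, from Enpp6 (0.10) to Mbp (0.43). The summed level of the 7 oligodendrocyte genes had a median of 88192 normalized counts in R9 and 40920 in R1-R2 libraries of DG. These medians were 140731 and 83766 in CA1, but 87424 and 143414 in CA3. The part of oligodendrocytes in the members' values was not tested.

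Habenula genes, whose neurons lie beside the thalamus, were read in the same libraries. In the CA1 library of rat R9875, Chrna3, a nicotinic receptor subunit, was 37.4 normalized counts against a median of 6.33, while Gpr151 was 7.48 against 5.78, Chrnb4 was 5.99 against 5.62 and Tac3, a neurokinin, was 198 against 170. Of the 5 habenula genes tested between the series in CA1, 0 were called by limma, and 2 had an unadjusted p under 0.05, Gng8 (log2 fold change 1.23, adjusted p = 0.0867) and Chrna3 (−0.84, adjusted p = 0.21). In CA3, 1 of 5 was called, Chrna3 (1.30, adjusted p = 0.0387), and in DG 1 of 3, Gng8 (0.98, adjusted p = 5.50e-05). Of all genes, 7.54% were called between the series in CA1, 18.6% in CA3 and 19.3% in DG.

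Of the 12 genes chosen for the Wnt pathway, 7 have a row, and Tcf7 and Tcf7l1, the remaining TCF factors, were not called between subfields or between the series within a subfield. Tcf7 was called for the series difference of CA3 minus DG (log2 difference 0.82, adjusted p = 0.0335). Between CA1 and DG, 2 of the 7 were called as higher and 1 as lower (28.5% of all genes called in either direction, 14.5% as higher in CA1). With 7 genes, these shares are not far from those of all genes. Nkd1, an inhibitor that Wnt signals induce, was higher in CA1 than in DG (log2 fold change 0.64, adjusted p = 1.55e-05), and so was Rnf43, a ligase that removes Wnt receptors (0.66, adjusted p = 8.58e-06), while Apc, part of the complex that degrades beta-catenin, was lower (−0.17, adjusted p = 0.0406). Between the series in CA1, Nkd1 alone was called (0.53, adjusted p = 0.00589), as higher in R9. In DG it was higher in R9 as well (0.53, adjusted p = 0.00642), with Apc (0.21, adjusted p = 0.0355). Among the libraries labelled CA3, most of which did not match that label in R9, Nkd1 (−0.53, adjusted p = 0.0335), Apc (−0.47, adjusted p = 0.000244) and Rnf43 (−0.55, adjusted p = 0.0377) were lower in R9. Between the series, 7.54% of all genes were called in CA1, 19.3% in DG and 18.6% in CA3.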

How the data were processed

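The authors sequenced poly-A mRNA on the Ion Proton, aligned reads to rn5 with TopHat2 and Bowtie2 and counted them on genes with featureCounts 1.4.4. They deposited 1 table whose signal is the count of a gene divided by a DESeq2 size factor of the library, and values here are called normalized counts. Divided by the smallest value of its library, 100% of the deposited signal came out as whole reads (within 0.001 of a read). No level of Ramp3 is given, and its promoter was searched with those of the other members. The members and gene lists were chosen with earlier results of these data known.

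Tests used limma 3.58.1 (trend) in R 4.3.3 on log2(value + 1), leaving out genes whose mean over the fitted libraries was under 5. The added 1 draws fold changes of low genes towards 0. A single library at 0 can widen them, as with the CA1 library of rat R2230 for Lef1 and Zic1. Subfields were compared over all libraries, and age, AI against AU and the identifier series within each subfield. Age was tested as aged against young rats. Alternatives were a pseudocount of 0.5 or 5, other filters, TMM, edgeR 4.0.16 (quasi-likelihood) and DESeq2 1.42.0 on the recovered reads, libraries matching their label, rat as a block, and each series alone. Leaving out libraries by Shox2, Slc22a6, Grid2ip or genes at 0, and each library in turn, was added after seeing the data. The rat number in the labels marks 1 animal, and deviations from subfield means correlated within rats at 0.06, 0.10 and 0.01 on average (CA1 with CA3, CA1 with DG, CA3 with DG). Named were the members, the other thalamic and habenula genes, examples of other lists, the 10 genes most like the members and the 3 most like each. Fits were checked on simulated data.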

Additional observations from a re-analysis of the deposited data

Results flagged for a closer look

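In the young groups of 10 rats (larger groups were not examined), 7 values lay farther from the nearest other value, relative to the range of the group, than Dixon's 95% critical value of 0.466 allows. For normally distributed values chance gives this in about 1 of 20 groups, and 18 were examined. The counts are skewed and members share libraries, so that rate does not hold here and the 7 values are descriptions. In CA1, rat R9879 had 838 normalized counts of Prkcd against 97.6 to 271 in the other 9 young rats, and 785 of Zic1 against 12.3 to 212. In DG, rat R9881 had 946 of Prkcd against 56.6 to 112, and 646 of Zic1 against 19.3 to 88.7. In CA3, rat R9876 had 142 of Lef1 against 24.3 to 82.5, and 236 of Synpo2 against 15.8 to 60.1. In CA1, rat R2175 had 100.5 of Synpo2 against 22.9 to 56.7, and meningeal genes were high there (Slc6a13 418 normalized counts, median 37.7; Slc22a6 243, median 11.5), whose part in the value was not tested.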

How the results depend on the processing

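The depth limits the low members most, since a median of 34.5 reads for Synpo2 and 37 for Rora gives a counting error of 17.0% and 16.4%. Of the 15 counts of members called, those for age, for AI against AU and for the series difference of CA3 minus DG were 0 under each alternative run. With rat as a replicate block for the subfields, and with no replicate block for the series differences, no count of members called changed (0 between CA1 and CA3, 2 between CA1 and DG, 1 between CA3 and DG, and 0 for the differences). The libraries matching their label left too few R9 rats for the series difference of CA1 minus CA3, which was not run there. The cause of each change below was not tested.

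For CA1 against CA3 the count of 0 became 1 (Rora) in the libraries matching their label. For CA1 against DG the count of 2 became 5 with DESeq2 and 4 without libraries with over 1000 tested genes at 0, and in R9 alone Prkcd was not called (adjusted p = 0.0612). For CA3 against DG the count of 1 became 2 with DESeq2, 2 without the libraries with Grid2ip above 100, 2 without those rich in zeros, 2 without any of these, and 0 in the libraries matching their label or in R9 alone. For R9 against R1-R2 in CA1 the count of 3 became 1 with a pseudocount of 0.5 or TMM, 0 with no filter on low values, without group as a covariate, in the libraries matching their label, or without the libraries with Shox2 above 50, with Grid2ip above 100 or any of these, and it was 0 to 3 when 1 library was left out. It was 0 without the CA1 library of rat R1923, R1930, R2182, R2233, R2238, R9865, R9869, R9870, R9875, R9876, R9877 or R9879, and 1 in 11 other cases. In CA3 the count of 1 became 2 with DESeq2, without the libraries rich in zeros or without any of these, and 0 in those matching their label, and 1 to 2 with 1 R9 library left out (2 without rat R9782). In DG the count of 3 became 1 in the libraries matching their label, without Grid2ip above 100 or without any of these, and 1 to 3 with 1 library left out. Rora was not called there by edgeR (adjusted p = 0.0764) or DESeq2 (0.0526), and Zic1 was called by both (0.0415 and 0.0334). The series difference of CA1 minus CA3 went from 0 to 1 without the libraries with Slc22a6 above 400, and that of CA1 minus DG from 0 to 1 without those rich in zeros.

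Among log2 fold changes of single members, 30 turned in sign, and none of these had been called. For CA1 against CA3, Synpo2 became 0.33 with edgeR and with DESeq2, 0.47 in R9 alone, 0.039 with a pseudocount of 5 and 0.13 without libraries rich in zeros, Lef1 0.14 in R9 alone and 0.036 without libraries rich in zeros, and Zic1 −0.41 in R1-R2 alone, −0.10 without Shox2 above 50 and −0.22 without Grid2ip above 100. For CA1 against DG in R1-R2 alone, Lef1 became −0.22, Zic1 −0.075 and Synpo2 −0.37, and Synpo2 became −0.23 without Grid2ip above 100, −0.046 in the libraries matching their label, −0.11 without Shox2 above 50 and −0.12 without any of these. For CA3 against DG, Rora became 0.064 with edgeR and 0.081 with DESeq2. For the series in CA3, Synpo2 became 0.094 with edgeR, 0.085 with DESeq2 and 0.14 in the libraries matching their label. For AI against AU in CA1, Rora became −0.034 in R9 alone. Tcf7l2 became −0.34 in R1-R2 alone, −0.18 without Shox2 above 50, −0.14 without Grid2ip above 100 and −0.13 without any of these libraries, where Lef1 became −0.45, Zic1 −0.57 and Synpo2 −0.46.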

Other observations

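The libraries of rat R9865 did not follow their labels by subfield markers. The library labelled CA3, with 755 normalized counts of Prkcd and 567 of Zic1, was closest to DG, and the library labelled DG, with 326 of Prkcd and 46.2 of Zic1, was closest to CA1. The DG library of rat R9881, with 946 of Prkcd, was closest to CA3, and the CA1 library of rat R9872, with 567, to DG. Of the 9 libraries with Grid2ip above 100 normalized counts, 4 were closest to a subfield other than the labelled one, and of the 3 with Shox2 above 50, 0 were. All 20 libraries closest to another subfield were R9, as were 8 of the 9 libraries with high Grid2ip and 2 of the 3 with high Shox2. These counts cannot be told apart from the share of the R9 series.

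Trh, the precursor of thyrotropin-releasing hormone, was 101.8 and 107 normalized counts in the CA1 libraries of rats R9875 and R9870, against a median of 11.4. The second of these was the highest of all libraries. Pmch, a marker of the lateral hypothalamus, was at 0 in every library.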
